A study of Saccharomyces cerevisiae with 5 samples.

Results

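Chromosome III of budding yeast, Saccharomyces cerevisiae, is the chromosome that carries the mating-type locus MAT and the silent mating cassettes HML and HMR. It is described here through its initiation sites, fork directions, fork meetings and replication times in 5 fitted replication profiles. Its members were all positions that the deposited tables assign to the chromosome, chosen by chromosome number and not by any measured value. They came to 626 of 23837 averaged positions in samples galactose G, glucose F and wild type B, 626 of 23838 in galactose E and 626 of 23858 in wild type A. They also made up 63 of 2386 windows of 5 kb and 12 of 407 initiation sites of the genome. The fitted segments reach base 316617, and the landmarks used to place the sites are HML at 11 to 15 kb, ARS305 at 39 kb, ARS306 at 74 kb, ARS307 at 109 kb, the centromere at 114 kb, MAT at 198 to 201 kb, ARS315 at 225 kb and HMR at 292 to 295 kb, all approximate. The genome build of these coordinates is not given in the sources used here.

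The assay sequences Okazaki fragments, the short pieces in which the lagging strand is made, from asynchronous cultures. The galactose group (n = 2, samples E and G) and the glucose group (n = 1, sample F) are strain yIW160-SSDDCS, in which galactose medium brings about overexpression of 6 initiation factors, Sld2, Sld3, Dbf4, Dpb11, Cdc45 and Sld7, while glucose leaves them at normal expression. The wild-type group (n = 2, samples A and B) is strain yIW160. The growth notes carry the same text for all 5 samples: cells at 30 degrees, then 4 hours in 2% of either sugar, then doxycycline at 40 micrograms per ml for 2.5 hours. The medium of the wild-type samples is not among their labels. The galactose and glucose samples were read on Ion Torrent and the wild-type samples on Illumina, so platform and strain cannot be told apart, and neither can galactose medium and raised factors. Nothing says that the replicates were separate cultures, and p-values therefore measure only the spread between these samples, which may be technical. The tables hold no counts, so read depth is unknown. The fit of chromosome III holds 45 and 87 segments in galactose E and G, 55 in glucose F, and 82 and 89 in the wild-type samples A and B.

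Replication starts at many origins whose core elements are called autonomously replicating sequences (ARS), and from each active origin a pair of forks leaves in opposite directions. Which strand is the lagging one depends on the direction of the fork, so the strand of the fragments tells where forks start and where converging forks meet. In this assay doxycycline shuts down DNA ligase I and the fragments stay unjoined. On chromosome III the silent cassettes lie near the ends, and each is flanked by silencers that hold an ARS element and keep its mating-type genes off. ARS305, ARS306, ARS307 and ARS315 are classical origins of this chromosome. The factors raised in galactose act at the step where a loaded helicase is switched on: Dbf4 activates the kinase Cdc7, Sld3 with Sld7 brings in Cdc45, a subunit of the active helicase, and Sld2 with Dpb11 brings in further subunits.

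Summed over its sites, chromosome III had more initiation in both galactose samples than in the glucose and wild-type samples, and the excess lay to the right of the centromere. A site is a place from which both a rightward and a leftward fork leave. Its probability is the fraction of chromosome copies that use it and had to reach 0.1, and sites less than 2500 bp apart in different samples were taken as the same site. The summed probability, an estimate of initiations per chromosome copy, was 7.93 in galactose E and 8.10 in galactose G, against 6.33 in glucose F and 6.40 and 6.54 in the wild-type samples A and B. The groups did not overlap, with a mean of 8.01 ± 0.118 (SD, n = 2) in galactose and of 6.42 ± 0.110 (SD, n = 3) in the other 3 samples, a difference of 1.59. The two-sided exact permutation p was 0.1, the smallest that 5 samples allow here, and 0.25 after Benjamini-Hochberg adjustment over 10 such tests.

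The excess was measured separately on each side of the centromere, a split chosen after the values had been seen. Left of it the sum was 2.90 and 2.99 in galactose E and G, 2.86 in glucose F and 3.00 and 2.98 in the wild-type samples A and B. Right of it the sum was 5.03 and 5.10 in galactose E and G, 3.47 in glucose F and 3.40 and 3.57 in the wild-type samples A and B. The left side thus held nearly the same sum in all 5 samples, with a difference of 0.00103 (exact permutation p = 1, adjusted 1), and the right side held the galactose excess of 1.59 (exact permutation p = 0.1, adjusted 0.25). The left sum of galactose G included 0.496 from a site at HML, and that of wild type B included 0.113 from another site there. At ARS305, ARS306 and ARS307 galactose G was the lowest sample, with 0.808, 0.841 and 0.848. Nearly equal left sums therefore do not mean equal values at each origin. The gap between the sides was 1.59 larger in galactose (exact permutation p = 0.1, adjusted 0.25). Left of the centromere, ARS305, ARS306 and ARS307 already had probabilities between 0.862 and 1 in glucose F and the wild-type samples. A probability cannot exceed 1, so these origins had little room for a rise. The split therefore cannot tell whether the 2 sides respond differently.

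**Figure D1:**
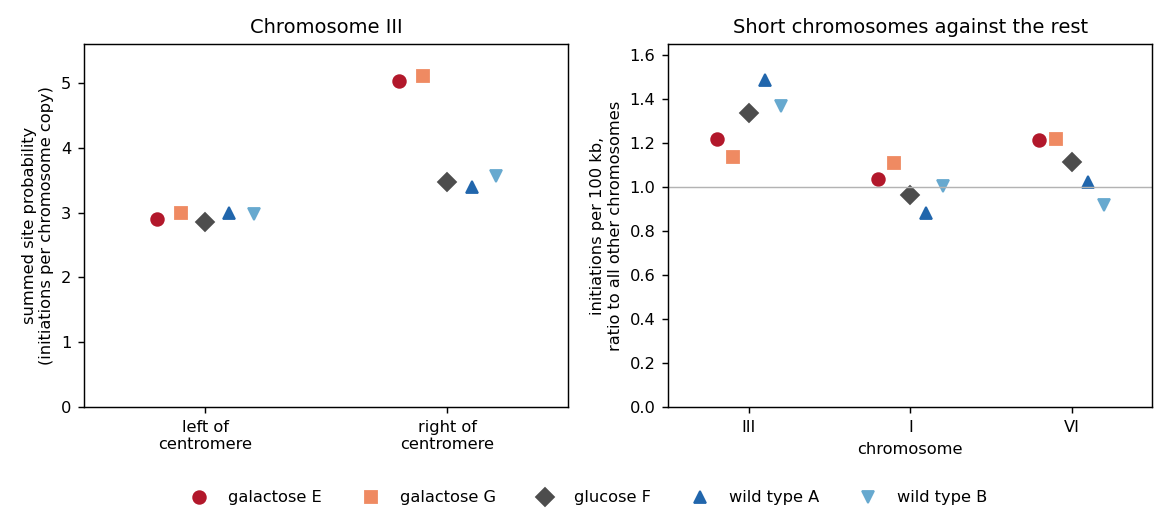
Left, the summed site probability of chromosome III (initiations per chromosome copy) left and right of the centromere, 1 point per sample. Right of the centromere the galactose samples sit at 5.03 and 5.10 and the others between 3.40 and 3.57, while left of it all 5 lie between 2.86 and 3.00. Right, initiations per 100 kb on chromosomes III, I and VI as a ratio to all other chromosomes; on III the galactose samples sit at 1.22 and 1.14, below the other 3.

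By site, 3 of the 12 sites rose in galactose against glucose and none fell (limma, adjusted p under 0.05, fitted over all 407 sites), a share of 25% that is close to the 24.6% of all sites that rose, while 4.91% of all sites fell. Against wild type 4 sites rose and 1 fell, beside 35.9% and 4.42% of all sites. Glucose and wild type differed at none of the 12 sites in limma, with 2 at an unadjusted p under 0.05, where 2.95% of all sites passed in either direction. At 5 of 12 sites (41.7%) galactose E and G both exceeded the other 3 samples, against 51.6% of sites genome-wide. The number of changed sites on chromosome III was therefore near that of the genome. Galactose enters 2 of the 3 contrasts, so the contrasts share samples and are given side by side. A site was kept when any sample reached 0.1, so a site listed in a single group alone was selected by that group.

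**Figure D2:**
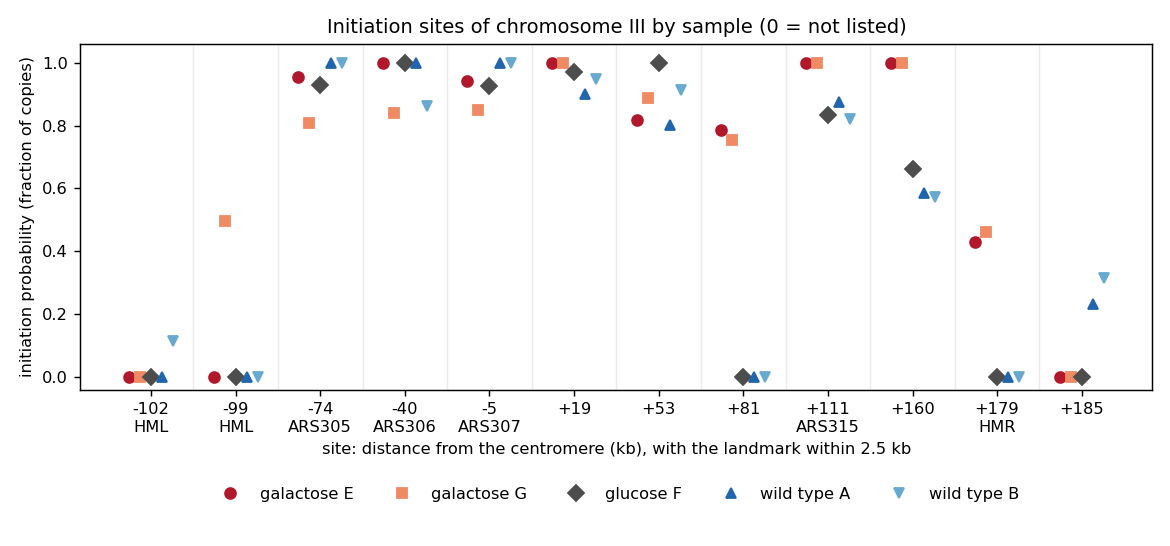
Initiation probability (fraction of chromosome copies, 0 where a sample lists no site) of the 12 sites of chromosome III in order along the chromosome, 1 point per sample, with each site's distance from the centromere in kb. The galactose samples stand furthest from the others at +81 kb, +160 kb and +179 kb, where glucose F and both wild-type samples are lower or at 0.

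HML, the left silent cassette, holds the alpha genes HMLALPHA1 and HMLALPHA2, a silent copy of alpha mating information. Initiation there was listed in 1 sample at each of 2 places. Galactose G had a site at base 14558 with a probability of 0.496, and galactose E, glucose F, wild type A and wild type B listed none there. At base 11923 galactose E, galactose G, glucose F and wild type A listed no site, and wild type B had one with a probability of 0.113. Neither site passed the test in any contrast. With sites joined within 10000 bp they became 1 site, with 0.496 in galactose G, 0.113 in wild type B and none listed elsewhere. That joined site also passed in no contrast. At base 14558 the replicates of galactose differed by the whole value of the site, and the difference from glucose was 0.248 (95% interval −0.583 to 1.08, limma adjusted p = 0.622).

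ARS305, ARS306 and ARS307, the origins left of the centromere, fired in most copies in every sample, with probabilities between 0.808 and 1. ARS305 had a probability of 0.956 and 0.808 in galactose E and G, 0.931 in glucose F and 1 in both wild-type samples. ARS306 had 1 and 0.841 in galactose E and G, 1 in glucose F, and 1 and 0.862 in the wild-type samples A and B. ARS307 had 0.942 and 0.848 in galactose E and G, 0.927 in glucose F and 1 in both wild-type samples. Galactose G was the lowest sample at each of these 3 origins. None passed the test: against glucose the differences were −0.0487 (95% interval −0.305 to 0.208) at ARS305, −0.0797 (−0.439 to 0.279) at ARS306 and −0.0315 (−0.203 to 0.140) at ARS307. Without galactose E, which leaves galactose G alone, the difference from glucose was −0.123 at ARS305 and −0.0782 at ARS307. Galactose and glucose then had 1 sample each and both wild-type samples were at 1, so that fit held no spread between replicates to judge by.

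The first 2 sites right of the centromere, at bases 132726 and 166641, were also listed in all 5 samples. The site at 132726 had a probability of 1 in both galactose samples, 0.971 in glucose F, and 0.900 and 0.947 in the wild-type samples A and B. The site at 166641 had 0.819 and 0.889 in galactose E and G, 1 in glucose F, and 0.803 and 0.914 in the wild-type samples A and B. At 132726 the galactose samples were above the other 3 by a small margin, with a difference from wild type of 0.0766 (limma adjusted p = 0.122), and at 166641 the groups overlapped.

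Near MAT, the expressed mating-type locus, a site was listed in the galactose samples only. It lay at base 194967, 3.03 kb left of the locus, with a probability of 0.786 in galactose E and 0.753 in galactose G, and no site was listed there in glucose F or in wild type A or B. This site entered the test only through the galactose samples, and the other samples were set to 0. The test therefore adds no support beyond that listing. The difference was 0.769 from glucose (95% interval 0.680 to 0.859, limma adjusted p = 0.00370) and 0.769 from wild type (95% interval 0.696 to 0.842, adjusted p = 0.00297). Both calls held when any one galactose or wild-type sample was left out, and the call against wild type also held without glucose F. The positions in galactose E and G were 1690 bp apart, so that joining sites within 1000 bp counts them as separate sites, and the call was then lost (adjusted p = 0.641 against glucose and 0.428 against wild type).

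ARS315, the next origin to the right of MAT, had a probability of 1 in both galactose samples, 0.835 in glucose F, and 0.875 and 0.820 in the wild-type samples A and B. Neither galactose value overlapped with the others. Both sat at the upper limit of a probability, so the tests of ARS315 saw no spread between the galactose samples. The difference passed the test against wild type (0.153, 95% interval 0.0587 to 0.247, limma adjusted p = 0.0402) and missed it against glucose (0.165, adjusted p = 0.0634). The call against wild type was lost without galactose E or without galactose G (adjusted p = 0.198 and 0.218).

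The next site, at base 273696 and 18.3 kb left of HMR, had a probability of 1 in both galactose samples, 0.663 in glucose F, and 0.587 and 0.574 in the wild-type samples A and B. It was used in every copy in galactose and in fewer copies in the other samples, which did not overlap with galactose. Both galactose values sat at the upper limit of a probability, so the tests of this site saw no spread between the galactose samples. The difference was 0.337 from glucose (95% interval 0.263 to 0.410, limma adjusted p = 0.00973) and 0.420 from wild type (0.360 to 0.480, adjusted p = 0.00455), and both calls held without any one galactose or wild-type sample. Joining within 1000 bp ended both calls (adjusted p = 0.641 and 0.164), with differences of 0.337 and 0.707. The position in wild type B, 275479, was then a site of its own, while the other 4 samples, at bases 273000 to 273555, still shared one.

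HMR, the right silent cassette, carries the a-type genes HMRA1 and HMRA2. Both galactose samples listed a site inside it, and both wild-type samples listed another to its right. Inside it, at base 293161, galactose E and G had a probability of 0.429 and 0.462, and glucose F, wild type A and wild type B listed no site. At base 299414, 4.41 kb to the right of HMR, galactose E, galactose G and glucose F listed none, and wild type A and B had 0.233 and 0.314. Each of these sites entered the test only through the group that listed it, and samples without it were set to 0. The tests therefore add no support beyond that listing. Inside HMR the difference was 0.445 from glucose (95% interval 0.355 to 0.536, limma adjusted p = 0.00845) and 0.445 from wild type (0.372 to 0.519, adjusted p = 0.00607). At 299414 galactose fell by 0.273 against wild type (95% interval −0.398 to −0.148, adjusted p = 0.0234), and glucose F differed from wild type by −0.273, which missed the threshold (adjusted p = 0.106).

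The calls around HMR rested on few samples. The call against glucose inside HMR was lost without wild type A or without wild type B (limma adjusted p = 0.0630 in both cases), and the call against wild type was lost without wild type B (adjusted p = 0.0530). The call at 299414 was lost without galactose E or without galactose G (adjusted p = 0.166 and 0.185), with sites joined within 1000 bp (0.428) and with a minimum probability of 0.3 (0.387). When sites within 10000 bp were joined, the sites inside and beside HMR became 1 site with a probability of 0.429 and 0.462 in galactose E and G, none listed in glucose F, and 0.233 and 0.314 in the wild-type samples A and B. On that joined site galactose exceeded glucose by 0.445 (adjusted p = 0.0203) and exceeded wild type by 0.172 (adjusted p = 0.0562).

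Fork direction also changed right of the centromere, in part between sites whose own probability was not called as changed. The rightward share is the percentage of fork probability that moves left to right, where 100% means that every copy is passed by a fork coming from the left. At MAT the rightward share was 87.4% and 75.3% in galactose E and G, against 14.9% in glucose F and 12.4% and 17.1% in the wild-type samples A and B. MAT was thus copied mostly by rightward forks in galactose and mostly by leftward forks in the other samples. The window that holds the middle of MAT missed the threshold (limma adjusted p = 0.162 against glucose and 0.0929 against wild type), while the next pair of windows, 200001 to 210000, passed it. There the share was 78.6% and 75.3% in galactose E and G, 14.9% in glucose F and 12.4% and 17.1% in the wild-type samples A and B. The difference was 62.1 percentage points from glucose (limma adjusted p = 0.0195) and 62.2 points from wild type (limma adjusted p = 0.0151). The galactose shares equal the probabilities of the site at 194967, 0.786 in galactose E and 0.753 in galactose G. Only the galactose samples listed that site, so these window calls add no support beyond that listing.

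Of 63 windows, 5 changed in galactose against glucose (7.94%, beside 11.8% of all windows) and 6 against wild type (9.52%, beside 18.4%), all of them right of the centromere. Glucose and wild type differed in none in limma, with 5 at an unadjusted p under 0.05, and the share over all windows was 0%. The largest change was in the window 250001 to 255000, between ARS315 and the site at 273696, with a rightward share of 0% in both galactose samples, 88.9% in glucose F, and 92.6% and 87.2% in the wild-type samples A and B. The difference was −88.9 points from glucose (limma adjusted p = 0.0178) and −89.9 points from wild type (adjusted p = 0.0109). This stretch was copied by leftward forks in every galactose copy and by rightward forks in most copies of the other samples.

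The remaining called windows all had a lower rightward share in galactose. In the window 180001 to 185000 the share was 31.4% and 22.0% in galactose E and G, 100% in glucose F, and 82.7% and 82.5% in the wild-type samples A and B (−73.3 points from glucose, limma adjusted p = 0.0246, and −55.9 points from wild type, adjusted p = 0.0205). In the window 145001 to 150000 it was 59.1% and 55.5% in galactose E and G, 97.1% in glucose F, and 92.0% and 95.1% in the wild-type samples A and B (−39.8 points, adjusted p = 0.0255, and −36.2 points, adjusted p = 0.0183). In the window 265001 to 270000 the share was 0% in both galactose samples, 32.5% in glucose F, and 40.6% and 32.8% in the wild-type samples A and B. It passed against wild type alone, by −36.7 points (limma adjusted p = 0.0251), and missed the threshold against glucose (adjusted p = 0.0506). Adjacent windows are crossed by the same forks and so are not separate tests, and without galactose E or without galactose G no window of the whole genome passed in either contrast.

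**Figure D3:**
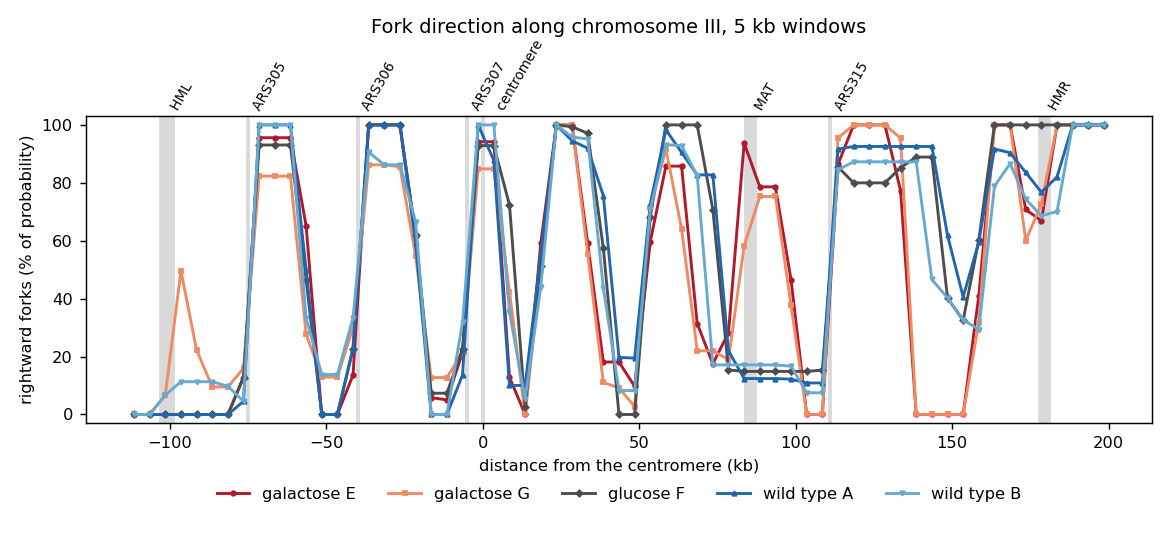
Percentage of fork probability moving rightward in 5 kb windows along chromosome III, 1 line per sample, against distance from the centromere in kb. The 5 lines rise and fall at the same places through ARS305, ARS306 and ARS307. Further right the galactose lines lie apart from the other 3 in separate stretches. Left of MAT they lie lower in the windows 145001 to 150000 (59.1% and 55.5%) and 180001 to 185000 (31.4% and 22.0%). Just right of the middle of MAT they lie higher, at 78.6% and 75.3%, and left of the site at +160 kb they lie at 0%.

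HML, HMR and the centromere differed less in direction. HML had a rightward share of 0% and 8.26% in galactose E and G, 0% in glucose F, and 0% and 8.16% in the wild-type samples A and B, so that leftward forks copied it in most or all copies of every sample. HMR had 72.5% and 83.5% in galactose E and G, 100% in glucose F, and 76.7% and 68.6% in the wild-type samples A and B. At the centromere the share was 94.2% and 84.8% in galactose E and G, 92.9% in glucose F and 100% in both wild-type samples. The midpoint windows of these 3 landmarks missed the threshold in every contrast. As a description, the rightward share correlated across the 63 windows with r = 0.951 between galactose E and G, 0.939 between wild type A and B and 0.958 between glucose F and wild type A, and with 0.757 between galactose E and glucose F. Galactose E and G differed by a mean of 12.7 percentage points over the 23 windows left of the centromere and of 6.02 points over the 40 windows right of it.

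Converging forks met within a few kb of the same places in all samples from ARS305 to the site at 132726, and at places that differed between the groups further right; these positions are described without a test. A meeting point was taken where the rightward share drops through 50% between neighbouring sites of probability at least 0.3. Between ARS305 and ARS306 it lay at 58.5 and 56.1 kb in galactose E and G, 57.4 kb in glucose F, and 57.6 and 56.3 kb in the wild-type samples A and B. Between ARS306 and ARS307 all 5 samples lay from 93.0 to 94.0 kb. Between ARS307 and the site at 132726 they lay from 119.8 to 123.9 kb, with no order by group.

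Between the sites at 132726 and 166641 the meeting point was at 147.8 kb in both galactose samples, at 153.0 kb in glucose F, and at 154.4 and 152.3 kb in the wild-type samples A and B. Between ARS315 and the site at 273696 it was at 248.9 and 249.8 kb in galactose E and G, 260.5 kb in glucose F, and 261.9 and 255.4 kb in the wild-type samples A and B. In both intervals the galactose samples lay further left than all others. Between ARS315 and the site at 273696 the summed probability of fork meetings was 1 in both galactose samples. It was 0.607 in glucose F, and 0.572 and 0.602 in the wild-type samples A and B. The meeting points of these samples in that interval thus describe only part of the copies. Since all forks of the fit move at 2900 bp per minute, a meeting point follows from the start times of the sites on either side and is not a separate measurement. The start time of the site at 273696 minus that of ARS315 was −0.199 min in galactose E and 0.282 min in galactose G, against 7.94 min in glucose F and 8.51 and 3.45 min in the wild-type samples A and B.

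The widest interval of the other samples, between the site at 166641 and ARS315, was divided in galactose by the site left of MAT. Galactose E and G had meeting points at 180.8 and 178.3 kb on its left and at 212.5 and 212.1 kb on its right. The other samples had 1 meeting point in the interval, at 188.3 kb in glucose F and at 190.1 and 184.9 kb in the wild-type samples A and B. The leftward fork of ARS315 accordingly ran 12.5 and 12.9 kb to its meeting point in galactose E and G, against 36.6 kb in glucose F and 34.9 and 40.2 kb in the wild-type samples A and B. The longest distance between neighbouring sites on the chromosome was 48.0 and 48.3 kb in galactose E and G, 58.1 kb in glucose F and 58.2 kb in both wild-type samples.

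Replication time, in contrast, passed no test on chromosome III. The deposited mean time of a position counts minutes of the fit from the earliest position of its own sample, not from the start of S phase. None of the 63 windows passed in limma in any contrast, with 10 at an unadjusted p under 0.05 for galactose against glucose, 4 for galactose against wild type and 0 for glucose against wild type. Over the genome 7.63%, 7.80% and 3.77% of windows passed in these contrasts. On the chromosome the lowest adjusted p of galactose was 0.104 in the contrast with glucose and 0.113 in that with wild type.

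The times are given for their spread between samples. The chromosome averaged 5.15 and 4.79 min in the galactose samples E and G, 8.04 min in glucose F, and 7.55 and 5.64 min in the wild-type samples A and B. The difference of −2.11 min between galactose and the other 3 samples had an exact permutation p of 0.2 (adjusted 0.25), and it became 1.63 min (p = 0.4) when each sample was centred on its own genome-wide median time. The sign of the difference thus depended on the reference time used for each sample. The median subtracted was lower for galactose E (8.44 min) and galactose G (9.24 min) than for the rest. It was 11.9 min for glucose F, 12.4 min for wild type A and 13.4 min for wild type B. Whether the clocks of the samples differed, or the rest of the genome changed more than chromosome III, was not tested. Galactose samples were earlier than all 3 others in 23 of 63 windows (36.5%, beside 40.5% of all windows). These windows lay in the runs 150001 to 205000 and 255001 to 315000. Galactose samples were later than all 3 others in 6 of 63 windows (9.52%, beside 8.05% of all windows). Both shares were near those of the genome.

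The wild-type replicates differed most at the right end. HMR was copied at 7.30 and 4.84 min in the galactose samples E and G, 18.3 min in glucose F, and 17.5 and 9.60 min in the wild-type samples A and B. The outermost position on the right was copied at 14.0 and 11.6 min in the galactose samples E and G, 25.1 min in glucose F, and 23.5 and 15.0 min in the wild-type samples A and B. Wild type A stood near glucose F there and wild type B nearer to galactose E, so that the wild-type samples differed from each other by more than wild type B differed from galactose E.

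Within a sample, HMR can be set against HML without regard to the clock, a comparison chosen after the values had been seen. The time of HMR minus that of HML was −1.81 and −3.90 min in the galactose samples E and G, 8.57 min in glucose F, and 8.31 and 2.04 min in the wild-type samples A and B. The direction was thus opposite in the galactose samples, with a mean difference of −9.16 min from the other 3 samples (exact permutation p = 0.2, adjusted 0.25). HML itself was copied at 9.12 and 8.74 min in the galactose samples E and G, 9.68 min in glucose F, and 9.24 and 7.56 min in the wild-type samples A and B, with groups that overlapped. ARS305 was copied at 0.384 and 3.46 min in the galactose samples E and G, 0.940 min in glucose F, and 0.464 min in both wild-type samples, so that galactose G alone was late there. The outermost position on the left was copied at 13.5 and 13.1 min in the galactose samples E and G, 14.1 min in glucose F, and 13.6 and 11.9 min in the wild-type samples A and B.

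**Figure D4:**
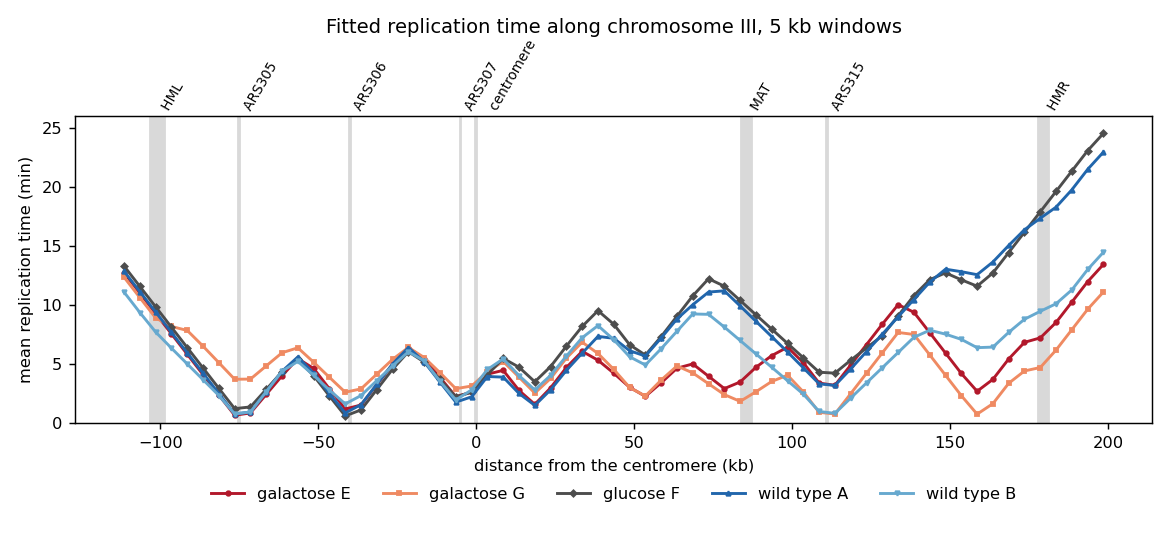
Mean replication time in minutes of the fit, counted from each sample's earliest position, in 5 kb windows along chromosome III, 1 line per sample, against distance from the centromere in kb. Galactose G lies above the other lines around ARS305, and towards HMR and the right end glucose F and wild type A rise to 25.1 and 23.5 min at the outermost position, with wild type B at 15.0 min and galactose E and G at 14.0 and 11.6 min.

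Compared with the other 15 chromosomes, chromosome III was dense in initiation in every sample, and its galactose excess was among the smallest. It ranked first of 16 chromosomes in summed probability per length in galactose E, glucose F, wild type A and wild type B and second in galactose G. One initiation fell on every 39.9 and 39.1 kb in galactose E and G, 50.0 kb in glucose F, and 49.5 and 48.4 kb in the wild-type samples A and B. Its sum per 100 kb was 1.22 and 1.14 times that of the other chromosomes in galactose E and G, 1.34 times in glucose F, and 1.49 and 1.37 times in the wild-type samples A and B. The ratio was lower in both galactose samples than in all others, by 0.218 (exact permutation p = 0.1, adjusted 0.25).

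The gain of chromosome III in galactose ranked near the bottom of the genome. Its summed probability was 1.27 times that of glucose, rank 15 of 16, and 1.24 times that of wild type, rank 16 of 16. Its mean probability per listed site already ranked 1 of 16 in glucose F, wild type A and wild type B. Whether this limited the gain was not tested. On the similarly short chromosomes I and VI the gain over glucose was 1.59 and 1.56 times, and over wild type 1.69 and 1.86 times. Chromosome VI had 1.21 and 1.22 times the sum per length of the rest in galactose E and G, against 1.11 times in glucose F and 1.02 and 0.917 times in the wild-type samples A and B, so its ratio stood higher in galactose where that of chromosome III stood lower. Mean time on chromosome III minus that of the other chromosomes was −4.07 and −6.13 min in the galactose samples E and G, −6.09 min in glucose F, and −5.44 and −8.23 min in the wild-type samples A and B, with groups that overlapped (exact permutation p = 0.5, adjusted 0.556).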

How the data were processed

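Okazaki fragments were sequenced in 5 samples, and the authors deposited 3 tables per sample: fitted fork segments, the same segments sampled along the chromosome, and the mean time at steps of 500 bp. Per the labels' column descriptions, path probability is a fraction and time is in minutes, as deposited by the authors. Every longer segment on chromosome III has a slope near 2900 bp per minute, a constant of their fit. For the aligner, the genome build and the program behind the fit, a name was not given in the sources used here. The tables hold no counts, so depth is unknown and no interval for counting error was computed.

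A site's probability is the mean of the rightward and leftward segments that start there, and a sample with no site within the joining distance was set to 0. Windows were kept with at least 50% of their positions in every sample. Sites and windows of the whole genome were fitted with limma 3.58.1 under R 4.3.3 (functions lmFit and eBayes, 3 groups, 2 residual degrees of freedom, two-sided, Benjamini-Hochberg threshold 0.05), with the single glucose sample assumed to vary like the other groups. Values per sample were compared between galactose and the other 3 samples by exact permutation in Python 3.11.15 with numpy 2.4.6 and pandas 2.3.3. The fit was tested on simulated data. Landmark values average the positions in the span, or within 2500 bp of a point. All 12 sites, 8 landmarks, called windows, both ends and chromosomes I and VI were named by rule. The chromosome, its landmarks and the tests were chosen with earlier results of these data known, and the split at the centromere and HMR minus HML after their values were seen. Alternatives covered the joining distance, probability minimum, scale, window size, variance trend, time centring and each sample left out. The smaller of the 2 directions as site probability was added after seeing the data. Cassette gene names come from RefSeq's R64 annotation, used for names only.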

Additional observations from a re-analysis of the deposited data

How the results depend on the processing

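The summed probability and its ratio to the rest kept their direction under every probability minimum, with the smaller direction (chosen after seeing the data) and without each sample. The time difference from the rest kept its direction without each sample, from 0.457 to 2.52 min, but its exact permutation p was never below 0.5. The mean time difference turned to 1.63 min when centred on each sample's median. In what follows the genome count stands in brackets. Sites called against glucose numbered 3 of 12 (120 of 407), and 1 of 15 (127 of 467) when joined within 1000 bp. Against wild type they numbered 5 of 12 (164 of 407), with 2 of 15 (147 of 467) joined within 1000 bp and 3 of 10 (162 of 373) within 10000 bp. Between glucose and wild type 0 of 12 (12 of 407) passed in limma, and 1 of 12 (40 of 407) on the arcsine scale. Direction windows against glucose numbered 5 of 63 (281 of 2386), with 19 of 157 (695 of 5966) in 2 kb and 3 of 31 (194 of 1192) in 10 kb windows. Against wild type they numbered 6 of 63 (440 of 2386), with 24 of 157 (1144 of 5966) in 2 kb windows and 11 of 63 (470 of 2386) with a variance trend. Larger and smaller windows change the number tested. Leaving out 1 sample gave 3 to 6 sites against glucose, 3 to 7 against wild type and 0 to 3 between glucose and wild type, and 0 to 9 direction windows against glucose and 0 to 16 against wild type. The lowest window counts came without galactose E or galactose G. For the rest the cause was not tested. No paired analysis was possible because the labels give the samples letters that no 2 groups share. Depth limits could not be assessed.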
